A study of Mus musculus with 8 samples.

Results

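B16F1 melanoma tumours that had received no radiation were compared between mice lacking both TNF receptors and wild-type mice. The 4 arrays compared were chosen by their labels from the 8 arrays of the series, as untreated tumours of either host, and were read over 45037 probe sets that are not controls. Wild-type hosts (WT) were C57BL/6-NCr mice, and receptor-deficient hosts (TNFR KO, labelled TNFR 1, 2 -/-) came from breeding pairs of the B6;129S-Tnfrsf1a[tm1Imx] Tnfrsf1b[tm1Imx]/J stock, although the labels give C57BL/6 as the host strain of both. The mice were 8 to 12 weeks old at the start, and 5 to 7 mice received B16F1 cells, an established mouse melanoma line, under the skin of the right hind limb. Both groups carried the same tumour cells and received no dose, and tumours measured 268 to 478 mm3 before the division into treatment groups. The irradiated tumours of the same series, which received 20 Gy and were excised 5 h later, are given where a comparison needs them. Whole-tumour RNA was pooled by group. Each pool was then measured on 2 arrays, which the labels call technical replicates. An error given below is therefore that of duplicate arrays of 1 pool. A test compares 2 pools and not 2 sets of mice, and the spread between mice was not measured.

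TNF is a cytokine made mainly by macrophages and other immune cells, and it signals through TNFR1 (Tnfrsf1a), present on nearly all cells, and TNFR2 (Tnfrsf1b), found mainly on immune and endothelial cells. Receptor engagement activates the transcription factor NF-kB, which switches on chemokines, adhesion molecules and its own inhibitors. In a tumour graft the deletion affects only the cells of the host, such as leukocytes, vessels and fibroblasts, while the melanoma cells keep their own receptor genes. A whole-tumour RNA sample mixes both, so fewer cells of a type and less RNA per cell cannot be told apart in any result below.

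Of 11345 genes bright enough to test, 234 (2.06%) were at least 2-fold higher and 709 (6.25%) at least 2-fold lower in TNFR KO hosts at an adjusted p under 0.05 (limma, Benjamini-Hochberg). A gene is called below only where it meets both conditions. Log2 differences are TNFR KO minus WT on the scale of log2(signal + 16), ± the standard error of limma, and the added 16 understates the differences of dim genes. The duplicate arrays were close enough that 44.0% of all tested genes had both TNFR KO arrays above both WT arrays and 34.1% had both below, so that groups without overlap are common here and are not a call. Inflammatory genes such as Lcn2 and Cxcl2 were among the lowest differences, as were genes of other kinds such as Zfp386 and Alkbh8, and keratin and matrix genes were among the highest. Krt6b, a keratin of stressed epidermis, had the highest log2 difference at 4.18, and Lcn2 (lipocalin 2, which binds bacterial siderophores) the lowest at -2.80. Krt6b was bright enough to test only through the untreated TNFR KO arrays, so its call is not independent of that filter.

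**Figure D1:**
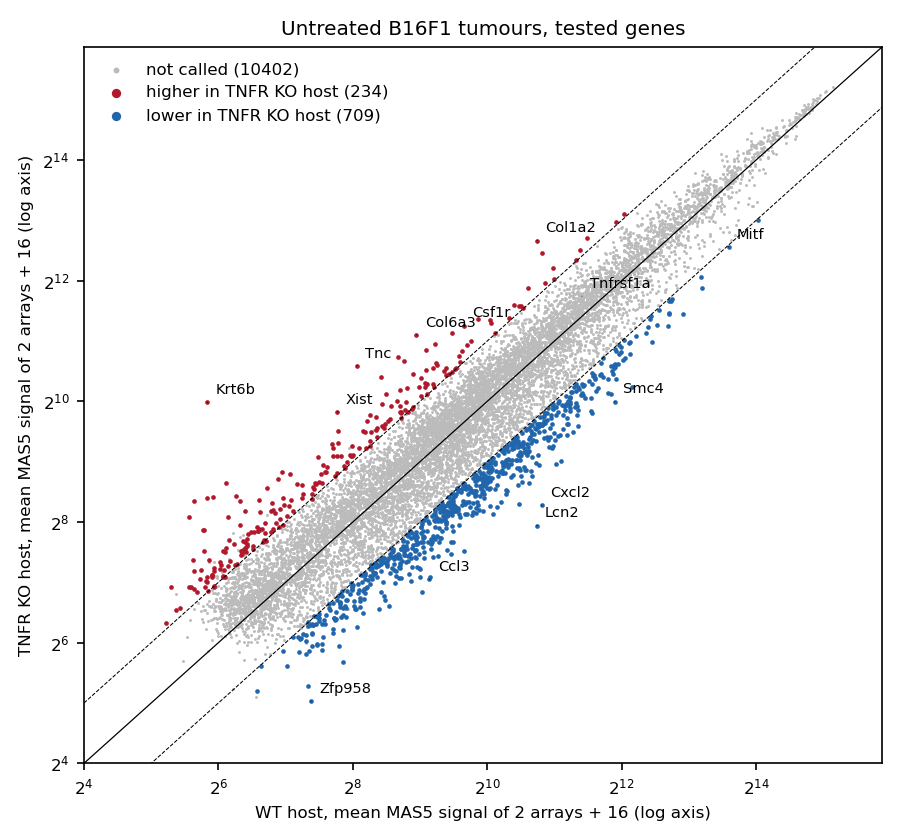
Mean MAS5 signal plus 16 in the TNFR KO pool against the WT pool for each tested gene, both on log axes, with the line of equality and the 2-fold lines (dashed). Red points are the 234 genes called higher and blue points the 709 called lower in TNFR KO hosts, and the named genes are those with large or central values in the text.

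The arrays themselves bear on every host difference. All 4 had been scaled to the same trimmed mean, and duplicates correlated at 0.9813 (WT) and 0.9799 (TNFR KO) across log2 values, against 0.961 to 0.9636 between hosts. The median signal was 64.9 and 61.9 for WT and 72.9 and 77 for TNFR KO. The upper quartile was 446.5 and 438.4 for WT and 404.8 and 408.1 for TNFR KO. The poly-A transcripts dap, lys, phe and thr, which are added to RNA before labelling, averaged 2283 to 13363 in WT and 11.5 to 16.9 in TNFR KO preparations. They were thus present in the WT preparations alone, and host and target preparation cannot be told apart in any comparison below. The hybridisation control cre averaged 21319 for WT and 22287 for TNFR KO. The 18S ribosomal probe sets averaged 293 and 529 in the same order, and the 5′ to 3′ signal ratio of actin 0.786 and 0.794. The median log2 difference of all tested genes was 0.08. Centring each array on its median moved this to -0.12 and the calls to 128 higher and 1118 lower.

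The melanoma markers were bright in both hosts. Dct, a pigment enzyme, read 29432 and 31640.3 in WT and 32314 and 34086 in TNFR KO. Tyrp1, another, read 27353 and 30415 in WT and 28640.1 and 30618 in TNFR KO. The neural crest factor Sox10 read 10417 and 10859 in WT and 11231 and 11268 in TNFR KO, and its other bright probe sets gave -0.20 and -0.56. Of 19 tested melanocyte genes, 1 was called lower and 0 higher, with a median log2 difference of 0.08. The exception was Mitf, the master transcription factor of the lineage, at 12055 and 12571 in WT and 5996 and 6022 in TNFR KO (log2 difference -1.03 ± 0.06, adjusted p = 0.000181, limma). Its duplicate arrays agreed closely within each host, but a second bright probe set of Mitf gave a log2 difference of -0.43 and the average of its probe sets -0.73, below the 2-fold threshold.

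Neither targeted receptor gene was called. Tnfrsf1a read 2653 and 2752 in WT and 3279 and 3539 in TNFR KO, a log2 difference of 0.33 ± 0.07 (adjusted p = 0.00927, limma), with both TNFR KO arrays above both WT arrays. Tnfrsf1b read 225 and 158 in WT and 128 and 127 in TNFR KO (-0.51 ± 0.20, adjusted p = 0.0752), and a second, dimmer probe set of it gave -0.98. The tumour cells carry both genes in either host, and the position of the probe sets relative to the disrupted part of each gene is not known here, so these values do not check the genotype. Tnf, the ligand, read 19.4 and 12.9 in WT and 12.6 and 15.3 in TNFR KO, below the signal of 68.8 from which genes were tested, and the 2 groups overlapped. Of 14 TNF family ligands on the array, 1 was bright enough to test: Tnfsf9 read 727 and 746 in WT and 869 and 791 in TNFR KO, with no call. Among 14 tested receptors of the family, 1 was called: Tnfrsf9 (4-1BB, a costimulatory receptor of activated lymphocytes) was higher at 361 and 300.1 in WT and 751 and 765 in TNFR KO. That was a log2 difference of 1.16 ± 0.12 (adjusted p = 0.000629, limma), which a second probe set matched at 1.16. Of 31 tested genes neighbouring Tnfrsf1a on its chromosome, 2 were higher, Cd9 and the endothelial gene Vwf described below. Of 20 neighbouring Tnfrsf1b none was called by limma (9 higher and 1 lower at an unadjusted p under 0.05). Cd9, a tetraspanin encoded near Tnfrsf1a, read 1916 and 2121 in WT and 4125 and 4156 in TNFR KO (1.03 ± 0.07), and the call was lost for Cd9 without WT array 1 (0.96).

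The neutrophil-attracting chemokines did not move together. Cxcl1, Cxcl2 and Cxcl3 are close paralogues encoded in 1 cluster on chromosome 5. They bind the same receptor, and their transcription by NF-kB is well known. The 120 bases before each transcription start are printed because the 3 windows hold the same NF-kB-type letters while the 3 genes differed in how they compared between hosts. They come from RefSeq on build GRCm38.p6, plus strand, with the motif GGGANNTTCC, searched on both strands, in capitals.
Cxcl2, chr5:90903779-90903898: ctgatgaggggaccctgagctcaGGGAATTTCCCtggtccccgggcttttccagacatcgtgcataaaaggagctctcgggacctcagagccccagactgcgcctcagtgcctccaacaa
Cxcl3, chr5:90785981-90786100: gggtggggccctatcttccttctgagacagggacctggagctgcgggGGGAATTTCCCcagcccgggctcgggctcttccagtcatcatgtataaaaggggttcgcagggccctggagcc
Cxcl1, chr5:90891125-90891244: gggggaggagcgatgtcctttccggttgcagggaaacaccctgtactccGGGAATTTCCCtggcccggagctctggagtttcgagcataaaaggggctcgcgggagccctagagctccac
The match starts 97 bases before the annotated start in Cxcl2, 73 in Cxcl3 and 71 in Cxcl1, and it reads GGGAATTTCCC in all 3, which matches on both strands at overlapping positions. GGGANNTTCC was found in 1.21% of 32851 promoter windows of 250 bases, and GGGAATTTCCC in 0.0426%. A match describes these letters and is not evidence of binding.

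Cxcl2 read 1859.9 and 1699 in WT and 284 and 304 in TNFR KO, a 5.78-fold lower signal (log2 difference -2.53 ± 0.08, adjusted p = 0.000113, limma). Cxcl3 read 582 and 518 in WT and 118 and 122 in TNFR KO (-2.06 ± 0.18, adjusted p = 0.000425). Both TNFR KO arrays lay far below both WT arrays for either gene. Cxcl1 went the other way without reaching the 2-fold threshold, at 307 and 392 in WT and 568 and 589.5 in TNFR KO (0.71 ± 0.13, adjusted p = 0.00502), and its other bright probe sets gave 0.66 and 1.25. Pf4, a platelet chemokine of the same family, read 1292 and 1355 in WT and 2217 and 2116 in TNFR KO (0.70, no call). In all, 2 of 5 tested members of this list of 9 were lower and none was called higher, with a median log2 difference of 0.52 that became negative under a stricter filter on signal. Cxcr2, their receptor on neutrophils, was below the tested level.

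CC chemokines, which attract monocytes and lymphocytes, were split as well. Ccl3 (MIP-1 alpha, made by activated macrophages and neutrophils) read 571 and 525 in WT and 98.8 and 134 in TNFR KO and was 4.29-fold lower (log2 difference -2.10 ± 0.13, adjusted p = 0.000178, limma). Ccl5 (RANTES), a chemokine of T cells, was higher at 492 and 352 in WT and 913 and 907 in TNFR KO (1.10 ± 0.18, adjusted p = 0.00343). In neither gene did the groups overlap, but the call was lost for Ccl5 without WT array 2 (0.87). The bright members Ccl6, Ccl8 and Ccl9 had log2 differences of 0.12, 0.07 and 0.17 and no call. In all, 1 of 9 tested genes was lower and 1 higher. Cxcl9, which attracts T cells and is induced by interferon, read 266 and 277 in WT and 183 and 180.4 in TNFR KO (-0.54, no call). Cxcl10, of the same kind, read 894 and 771 in WT and 1407 and 1344 in TNFR KO (0.72, no call).

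The brightest neutrophil genes were lower as well. Lcn2 read 1696 and 1681 in WT and 206 and 254 in TNFR KO, 6.97-fold lower (log2 difference -2.80 ± 0.16, adjusted p = 0.000148, limma). S100a8 read 2047 and 2314 in WT and 514 and 492 in TNFR KO (-2.08 ± 0.08, adjusted p = 0.000113). S100a9, its partner in calprotectin, read 1331 and 1477 in WT and 292 and 303 in TNFR KO (-2.18 ± 0.08, adjusted p = 0.000113). These 3 genes, abundant in neutrophils and also made by inflamed epithelium and myeloid cells, had no overlap between hosts. They were the 3 lower calls among 8 tested genes of 13 matched, none was higher, and the median log2 difference was -0.20. Mpo, Elane, Camp and Ltf, granule genes that define the lineage, were below the tested level, and no marker was listed at 0. The summed signal of the matched list was 5743 and 6114 in WT and 1622 and 1834 in TNFR KO, most of it from the 3 called genes.

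Some further genes of the acute inflammatory response were lower, and others were not. Acod1, which makes itaconate in activated macrophages, read 131 and 159.6 in WT and 34.2 and 12.0 in TNFR KO (-2.10 ± 0.28, adjusted p = 0.00181, limma). Clec4e, a receptor for mycobacterial and dead-cell ligands on myeloid cells, read 133 and 129 in WT and 36.3 and 46.5 in TNFR KO (-1.36 ± 0.09, adjusted p = 0.000219). The groups did not overlap in either gene, though both TNFR KO signals are near the pseudocount of 16, so that the size of the difference depends on it. Acod1 passed the filter on signal only through the untreated WT arrays, so its call is not independent of that filter. Il1b, the main secreted interleukin-1, read 478 and 591 in WT and 273 and 274 in TNFR KO (-0.92 ± 0.10, adjusted p = 0.000848), short of the 2-fold threshold. Its antagonist Il1rn read 307 and 304 in WT and 304 and 305 in TNFR KO, with a log2 difference of -0.00, and none of 7 tested interleukin-1 family genes was called by limma (3 lower and 0 higher at an unadjusted p under 0.05, median -0.35). The acute-phase gene Saa3 read 2312 and 2103 in WT and 1698 and 1571 in TNFR KO (-0.43, no call). Cp, another, read 599.0 and 598.6 in WT and 1115 and 1116 in TNFR KO (0.88, no call), with other bright probe sets from -0.17 to 1.02. Of 5 tested acute-phase genes 1 was called higher (1.33) and 1 lower (Lcn2, given above). Csf1, the growth factor of macrophages, was higher at 277 and 271 in WT and 746 and 659 in TNFR KO (1.31 ± 0.11, adjusted p = 0.000327), although the mean of its 4 bright probe sets gave 0.85.

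**Figure D2:**
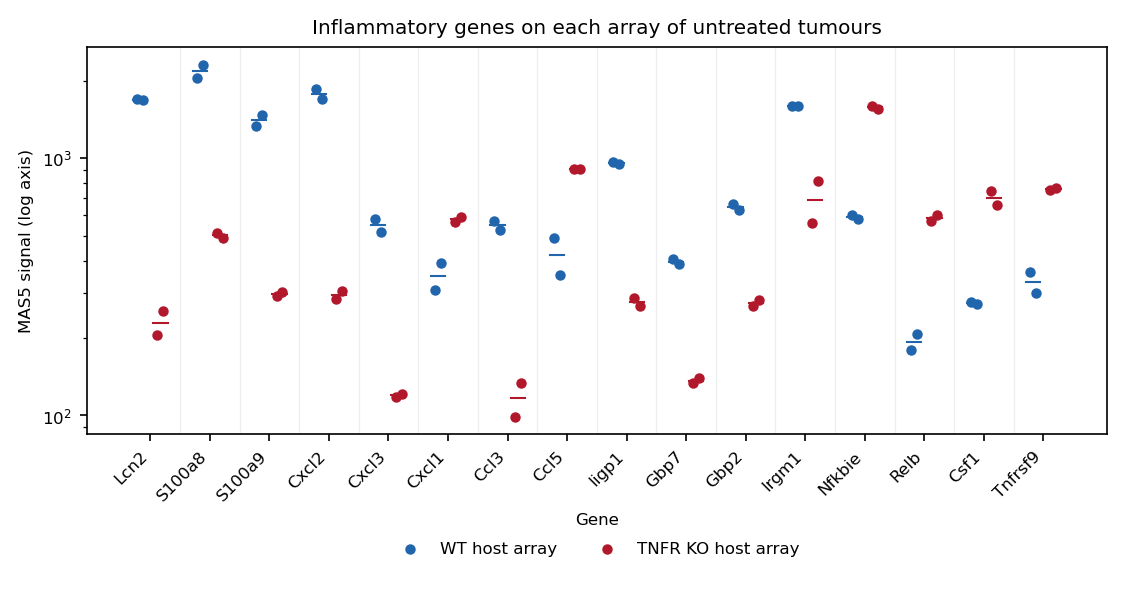
MAS5 signal (log axis) of 16 inflammatory genes on each of the 4 arrays of untreated tumours, blue for WT and red for TNFR KO hosts, with a bar at the mean of the 2 arrays. Lcn2, S100a8, S100a9, Cxcl2, Cxcl3, Ccl3 and the interferon-induced GTPases lie lower on the TNFR KO arrays, while Cxcl1, Ccl5, Nfkbie, Relb, Csf1 and Tnfrsf9 lie higher.

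Genes of the NF-kB system lay on the higher side in the receptor-deficient hosts. Relb, a subunit of the non-canonical arm, read 179 and 207 in WT and 568 and 599.8 in TNFR KO (1.53 ± 0.19, adjusted p = 0.00125, limma). Nfkbie, which encodes the inhibitor IkB epsilon and is itself an NF-kB target, read 601 and 579.7 in WT and 1602 and 1556 in TNFR KO (1.39 ± 0.06, adjusted p = 0.000115). Every TNFR KO array was over 2-fold above every WT array for both genes. Nfkbia, the inhibitor IkB alpha, read 4571 and 4946 in WT and 8532 and 9220.5 in TNFR KO (0.90 ± 0.07, adjusted p = 0.000345), which misses the 2-fold threshold. The other bright probe sets of Nfkbia ranged from 0.58 to 1.08. The canonical subunit Rela read 2712 and 2747 in WT and 3205 and 3286 in TNFR KO (0.25) and the inhibitor Tnip1 had a log2 difference of 0.39. Of 11 tested subunits and inhibitors, 2 were higher, none was lower and the median was 0.39, against 0.08 over all tested genes.

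Among 21 tested targets of TNF, 3 were higher (Relb, Csf1 and Mmp3) and 1 was lower (Cxcl2), with a median log2 difference of 0.50. Mmp3, a matrix metalloproteinase of fibroblasts, read 71.9 and 85.9 in WT and 226 and 223 in TNFR KO (1.35 ± 0.28, adjusted p = 0.0095, limma), and its call was lost for Mmp3 without WT array 1 (1.24). The bright targets Sod2 and Ier3 had log2 differences of 0.46 and 0.50 and no call, and the other bright probe sets of Sod2 gave 0.15 and -0.44. Upstream, 1 of 16 tested signalling genes was higher and 1 lower. Map3k7 (TAK1, the kinase that activates IKK) read 897 and 964 in WT and 439 and 377 in TNFR KO (-1.16 ± 0.10, adjusted p = 0.000355), but its other bright probe sets gave -0.81, -0.54 and -0.40, and the mean over all its probe sets, dim ones included, was -0.34. Ripk3, the kinase of necroptosis, read 112 and 80.3 in WT and 208 and 233 in TNFR KO (1.09 ± 0.14), and its call was lost for Ripk3 without WT array 2 (0.89). Casp8, Tradd and Ikbkb had log2 differences of -0.11, -0.10 and -0.05 and no call. Other bright probe sets gave -0.07 and 0.30 for Tradd and 0.12 and 0.80 for Ikbkb.

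The interferon-induced GTPases, which attack the vacuoles of intracellular pathogens, were lower as a group. Promoters of 4 of them are printed because the windows hold the letters of an interferon-stimulated response element and the genes were all called lower. Each shows the 100 bases before the RefSeq start on GRCm38.p6, with TTTCNNTTTC, searched on both strands, in capitals.
Gbp2, chr3:142620563-142620662, plus strand: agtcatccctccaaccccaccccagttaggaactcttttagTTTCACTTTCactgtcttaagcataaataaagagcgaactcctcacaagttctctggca
Gbp7, chr3:142530236-142530335, plus strand: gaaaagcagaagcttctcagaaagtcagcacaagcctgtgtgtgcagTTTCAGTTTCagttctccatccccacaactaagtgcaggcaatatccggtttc
Irgm1, chr11:48871421-48871520, minus strand: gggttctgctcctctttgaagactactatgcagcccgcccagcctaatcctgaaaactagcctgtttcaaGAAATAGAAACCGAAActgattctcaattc
Irgm2, chr11:58214877-58214976, plus strand: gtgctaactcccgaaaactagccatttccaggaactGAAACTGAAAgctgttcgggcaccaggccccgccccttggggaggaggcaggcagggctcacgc
Matches start 59 bases before the annotated start in Gbp2, 53 in Gbp7 and 64 in Irgm2, and 2 overlapping matches start 30 and 24 bases before it in Irgm1. Of the 9 GTPases, 7 had a promoter entry and 5 held the motif, Igtp being the fifth, against 2.98% of 32851 windows of 250 bases. Among the 25 tested antiviral genes described below, 18 had an entry and 6 held it. A match is a description and not a bound site.

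Iigp1 read 972 and 948 in WT and 286 and 266 in TNFR KO and was 3.35-fold lower (log2 difference -1.74 ± 0.08, adjusted p = 0.000122, limma), although a second probe set of Iigp1 gave -0.39. Gbp7 read 404 and 387 in WT and 134 and 139.5 in TNFR KO (-1.43 ± 0.11, adjusted p = 0.000282). Gbp2 read 663 and 631 in WT and 267 and 281 in TNFR KO (-1.19 ± 0.10, adjusted p = 0.000317), and its second probe set gave -1.26. In all 3 genes the 2 TNFR KO arrays were near each other and under every WT array. The TNFR KO arrays were further apart for the others. Irgm1 read 1599 and 1604 in WT and 560.5 and 814 in TNFR KO (-1.22). Ifi47 read 693 and 697 in WT and 223 and 404 in TNFR KO (-1.17). Irgm2 read 776 and 706 in WT and 318 and 384 in TNFR KO (-1.05). Calls were lost for Irgm1 without TNFR KO array 1 (-0.96), Ifi47 without WT array 1 (-1.17) and without WT array 2 (-1.16) and without TNFR KO array 1 (-0.76) and for Irgm2 without WT array 1 (-0.98) and without TNFR KO array 1 (-0.92). Igtp read 1111 and 1096 in WT and 824 and 665 in TNFR KO (-0.57, no call). In all, 6 of 9 tested GTPases were lower and none was higher, with a median log2 difference of -1.17, and without TNFR KO array 1 the count was 3.

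The broader antiviral response was mixed, and no test compared it with the GTPases. Of 25 tested antiviral interferon-stimulated genes, 1 was higher and 1 lower (3 without WT array 2, 5 with arrays centred on the median), with a median of -0.12 whose sign turned under some alternatives (-0.32 to 0.09). At an unadjusted p under 0.05, 5 were higher and 10 lower. Ifit2, a sensor of foreign RNA, read 654 and 638 in WT and 249 and 246 in TNFR KO (-1.33 ± 0.06, adjusted p = 0.00012, limma). Ifi27l2a read 242 and 313 in WT and 568 and 603 in TNFR KO (1.05 ± 0.14), and the call was lost for Ifi27l2a without WT array 1 (0.87). Ifitm3, Ifi35 and Oas1a, bright members of the list, had log2 differences of 0.09, 0.12 and 0.38 and no call.

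Antigen presentation genes had 1 call. B2m, the light chain of MHC class I, read 20044 and 20885 in WT and 20642 and 20927 in TNFR KO (0.02). The heavy chain H2-K1 read 9854 and 10012 in WT and 12106 and 12270.5 in TNFR KO (0.29), while its other bright probe sets gave 0.66, 1.02 and 0.72. H2-D1 had a log2 difference of 0.32, and its other bright probe sets ranged from -0.25 to 0.99. Class I heavy chains are near-identical and may share signal. At an unadjusted p under 0.05, 5 class I genes were higher and 3 lower, with a median of 0.12. Of 13 tested class I genes, 1 was called: Tapbp (tapasin, which loads peptides) read 2797 and 2525 in WT and 5711 and 5895 in TNFR KO (1.12 ± 0.07, adjusted p = 0.000186, limma), while its second probe set gave 0.67. None of 6 tested class II genes was called by limma (1 higher and 2 lower at an unadjusted p under 0.05), and their median was -0.04. Cd74, the invariant chain of class II, read 1354 and 1289 in WT and 1283 and 1246 in TNFR KO, and H2-Aa 1613 and 1509 in WT and 1325 and 1373 in TNFR KO, with log2 differences of -0.06 and -0.21.

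Macrophage markers were higher in the receptor-deficient hosts. Csf1r, the receptor that defines the lineage, read 786 and 792 in WT and 2481 and 2382 in TNFR KO and was 3.04-fold higher (log2 difference 1.60 ± 0.05, adjusted p = 0.000113, limma). Laptm5, a lysosomal protein of blood cells, read 360.5 and 331 in WT and 1103 and 1090.5 in TNFR KO (1.62 ± 0.07, adjusted p = 0.000115), but its other bright probe sets gave 0.47 and 0.74, and the mean over all its probe sets, dim ones included, 0.56. For Csf1r the other probe sets were also higher, at 1.26 and 0.90. The subunits of complement C1q, made mainly by macrophages, moved together. C1qa read 1348 and 1311 in WT and 3115 and 3038 in TNFR KO (1.20 ± 0.06, adjusted p = 0.000122, limma). C1qb read 826 and 808 in WT and 2059.7 and 1819.8 in TNFR KO (1.23 ± 0.08, adjusted p = 0.000186). C1qc read 607 and 584 in WT and 1479.5 and 1581 in TNFR KO (1.34 ± 0.09, adjusted p = 0.000217). Every TNFR KO array was over 2-fold above every WT array for these 3 genes. Cd68, a lysosomal marker, was at the threshold at 734 and 702 in WT and 1495 and 1449 in TNFR KO (1.02 ± 0.07). Aif1 (Iba1) read 83.3 and 47.6 in WT and 199 and 135 in TNFR KO (1.18 ± 0.31). Calls were lost for Cd68 without WT array 2 (0.99) and without TNFR KO array 1 (0.998) and for Aif1 without WT array 2 (0.86) and without TNFR KO array 1 (0.93). The lysozyme Lyz2 read 1934 and 2154 in WT and 3877 and 3819 in TNFR KO (0.91) and fell just short of the threshold. Lyz1, a near-identical copy that may share its signal, had a log2 difference of 0.92.

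In all, 7 of 19 tested macrophage genes were higher, none was lower and the median log2 difference was 0.91. The summed signal of the 22 matched markers was 14022 and 14086 in WT and 28425 and 27942 in TNFR KO. None of 7 tested activation-state genes was called by limma (2 higher and 1 lower at an unadjusted p under 0.05), with a median of 0.24 and 6 of them above 0. Arg1, the member below 0, read 1019.6 and 1025 in WT and 839 and 878 in TNFR KO (-0.25). Toll-like receptors and adaptors had no call among 13 (2 higher and 3 lower at an unadjusted p under 0.05, median 0.07). Of 11 tested complement genes only the 3 C1q subunits were called higher, and C2 read 4493 and 4464 in WT and 5429 and 5422 in TNFR KO (0.28). Lymphocyte markers were mostly below the tested level (6 of 21 tested). Cd8a read 238 and 234 in WT and 246 and 287 in TNFR KO (0.16), and the call in that list was Thy1, which fibroblasts share. Of 4 tested dendritic cell genes, the actin-bundling Fscn1 was higher at 1259 and 1271 in WT and 2717 and 2609.8 in TNFR KO (1.06 ± 0.07), with a second probe set at 0.38.

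Collagens, the structural proteins of the extracellular matrix, were higher in the receptor-deficient hosts. Of 20 tested collagen chains of 24 matched, 14 were higher and none was lower, with a median log2 difference of 1.35, while 2.06% of all tested genes were called higher. Of these chains 2 passed the filter on signal only through the untreated TNFR KO arrays, and without them 12 of 18 were higher. The fibrillar Col1a2 read 1730.3 and 1660.1 in WT and 6541 and 6409 in TNFR KO (1.92 ± 0.06, adjusted p = 0.000113, limma). Col3a1, also fibrillar, read 1727 and 1858 in WT and 5565 and 5664 in TNFR KO (1.64 ± 0.06, adjusted p = 0.000113). The chains of the microfibrillar collagen VI were higher together. Col6a1 read 384 and 397 in WT and 1686 and 1687 in TNFR KO (2.07 ± 0.07, adjusted p = 0.000113). Col6a2 read 552 and 606 in WT and 1908 and 2016 in TNFR KO (1.73 ± 0.11). Col6a3 read 484 and 471 in WT and 2276 and 2077 in TNFR KO (2.15 ± 0.07, adjusted p = 0.000113). The 2 hosts were far apart in all 3 chains. Col5a2, a minor fibrillar chain, read 387 and 412 in WT and 1132 and 1157 in TNFR KO (1.48 ± 0.09). Col4a1, of basement membranes, read 3886 and 3808 in WT and 7989.6 and 8072 in TNFR KO (1.06 ± 0.06). Col18a1, the source of endostatin, read 439 and 477 in WT and 1343 and 1429 in TNFR KO (1.57 ± 0.11). For every chain named so far the 2 TNFR KO arrays were close to each other and above both WT arrays. Col12a1 read 42.5 and 36.2 in WT and 236 and 201 in TNFR KO (2.08 ± 0.27), but its second probe set gave 0.44. Col12a1 is among the chains that passed the filter only through the untreated TNFR KO arrays, so its call is not independent of that filter. The summed signal of the matched chains was 14319 and 14762 in WT and 38881 and 38763 in TNFR KO.

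Genes of activated fibroblasts and matricellular proteins went with the collagens. Tnc (tenascin C, a matrix protein of wounds and tumours) read 235 and 265 in WT and 1553 and 1494 in TNFR KO, 5.79-fold higher (log2 difference 2.53 ± 0.08, adjusted p = 0.000113, limma). Bgn (biglycan) read 601 and 788 in WT and 2249 and 2229.5 in TNFR KO (1.68 ± 0.14, adjusted p = 0.000356). Fbln2 (fibulin 2) read 62.7 and 100.5 in WT and 311 and 316 in TNFR KO (1.78 ± 0.20). Lrrc15, a marker of cancer-associated fibroblasts, read 32.5 and 77.1 in WT and 259.9 and 248 in TNFR KO (2.00 ± 0.30). The WT arrays were less close to each other than the TNFR KO arrays for Bgn, Fbln2 and Lrrc15, with no overlap. Pdgfrb, the platelet-derived growth factor receptor of fibroblasts and pericytes, read 337 and 319.7 in WT and 1096 and 866 in TNFR KO (1.52 ± 0.12, adjusted p = 0.000277). The surface protein Thy1 read 295 and 266 in WT and 815 and 794 in TNFR KO (1.47 ± 0.09), and Cthrc1, secreted at sites of repair, had a log2 difference of 1.45. Thbs2, a thrombospondin that restrains angiogenesis, read 73.9 and 89.6 in WT and 222 and 219 in TNFR KO (1.28 ± 0.11), with other probe sets at 0.64 and 0.09. Ccn2, a target of TGF-beta, was at the threshold (722 and 674 in WT and 1479.6 and 1364 in TNFR KO, 1.01 ± 0.07), and its call was lost for Ccn2 without WT array 2 (0.96) and without TNFR KO array 1 (0.95).

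Bright genes of the same lists were not called. The intermediate filament Vim read 27679.7 and 29792 in WT and 29279.9 and 30848 in TNFR KO (0.07). The matrix glycoprotein Sparc read 11719 and 12339 in WT and 16827 and 17305 in TNFR KO (0.50), and its other bright probe sets gave 0.76 and 0.16. The protease inhibitor Timp2 had a log2 difference of 0.49, with 0.57 to 0.68 in its other bright probe sets. In all, 11 of 24 tested fibroblast genes were higher, none was lower and the median was 0.91, or 11 of 23 and 0.81 without the member that passed the filter only through untreated TNFR KO arrays. Among 14 collagen-processing genes, 3 were higher. Loxl1, which crosslinks elastin, read 189.7 and 155 in WT and 488 and 465 in TNFR KO (1.39 ± 0.14). The prolyl hydroxylase P3h2 read 309.5 and 307 in WT and 721 and 713 in TNFR KO (1.18 ± 0.11). The call of the other, 1.09, was lost for P3h1 without TNFR KO array 1 (0.63) and without TNFR KO array 2 (0.62). The collagen chaperone Serpinh1 read 13037 and 12982 in WT and 16103 and 16432 in TNFR KO (0.32, no call). Of 16 tested proteases and inhibitors only Mmp3 was higher. Mmp16 was lower (-1.02), and its call was lost for Mmp16 without WT array 1 (-0.95) and without WT array 2 (-1.08) and without TNFR KO array 2 (-0.73). Mmp14, the membrane collagenase, read 4464 and 4479.5 in WT and 6386 and 6174 in TNFR KO (0.49, no call). Of 18 tested genes of the TGF-beta pathway 2 were higher, Ccn2 and the matrix protein Tgfbi (723 and 583 in WT and 1559.9 and 1422 in TNFR KO, 1.18 ± 0.11), while the receptor Tgfbr2 read 2351 and 2469.7 in WT and 2417 and 2477 in TNFR KO (0.02). Integrins had 1 call among 16, Itgb5 (1.01), which was lost for Itgb5 without WT array 2 (0.86) and without TNFR KO array 2 (0.94).

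Endothelial genes leaned the same way, with 8 of 26 tested members called higher, or 5 with arrays centred on the median (median log2 difference 0.76, none lower). All 26 were above 0, as were 6462 of the 11345 tested genes, but with median centring Ramp2 was at -0.17. Aplnr, the apelin receptor of sprouting vessels, read 543 and 513 in WT and 1822 and 1829.6 in TNFR KO (1.76 ± 0.06, adjusted p = 0.000113, limma). Its ligand Apln read 294 and 331 in WT and 749 and 731 in TNFR KO (1.20 ± 0.09, adjusted p = 0.000269), with no overlap either. The sialomucin Cd34 read 279.6 and 258 in WT and 692 and 739.8 in TNFR KO (1.36 ± 0.08), and the junction protein Esam read 417 and 358 in WT and 982 and 1051 in TNFR KO (1.36 ± 0.10). No array of either host overlapped with the other in these 4 genes. Mmrn2, a protein of the vessel matrix, read 238 and 183 in WT and 551 and 504 in TNFR KO (1.27 ± 0.13). Vwf (von Willebrand factor), also encoded near Tnfrsf1a, read 251 and 374 in WT and 721 and 607 in TNFR KO (1.07 ± 0.21). The receptor Tie1 and the transcription factor Sox18 had log2 differences of 1.02 and 1.01. The calls of these 3 were lost for Vwf without WT array 1 (0.80) and without TNFR KO array 1 (0.95), Tie1 without WT array 1 (0.97) and without TNFR KO array 1 (0.91) and for Sox18 without WT array 1 (0.89) and without TNFR KO array 1 (0.99). The bright markers Ramp2, Plvap and Eng had log2 differences of 0.03, 0.25 and 0.43 and no call, but a second bright probe set of Eng gave 0.97. Summed over the matched list, the signal was 12644 and 13468 in WT and 20555 and 19836 in TNFR KO.

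Vegfa, the main angiogenic factor and a hypoxia target, overlapped between hosts (1007 and 1052 in WT and 991 and 1015 in TNFR KO, -0.04), and a second bright probe set gave 0.36. Of 20 tested angiogenic factors 4 were higher, Thbs2 given above being 1 of them. Pdgfb, whose product recruits pericytes, read 232 and 244 in WT and 556 and 643 in TNFR KO (1.27 ± 0.09). The endothelial receptor Notch4 read 248 and 217 in WT and 529.6 and 539 in TNFR KO (1.15 ± 0.08). Angptl4, a lipase inhibitor that acts on vessels, read 202 and 203 in WT and 449 and 423 in TNFR KO (1.05 ± 0.07). A second bright probe set of Pdgfb gave 0.57, and the average of both 0.92. The average for Angptl4 was 0.49, but its other probe set was below the tested level. Of 11 tested leukocyte adhesion genes 1 was higher, the junction molecule F11r (569.9 and 479 in WT and 1242 and 1256 in TNFR KO, 1.23 ± 0.10), whose probe-set mean of 0.52 includes a probe set below the tested level. Pericyte and smooth muscle genes had 1 call among 16: Mcam (CD146) read 894 and 932 in WT and 2768 and 2469 in TNFR KO (1.50 ± 0.15, adjusted p = 0.000589, limma). Acta2, smooth muscle actin, read 2605 and 2669 in WT and 4388 and 4514 in TNFR KO (0.75, no call).

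**Figure D3:**
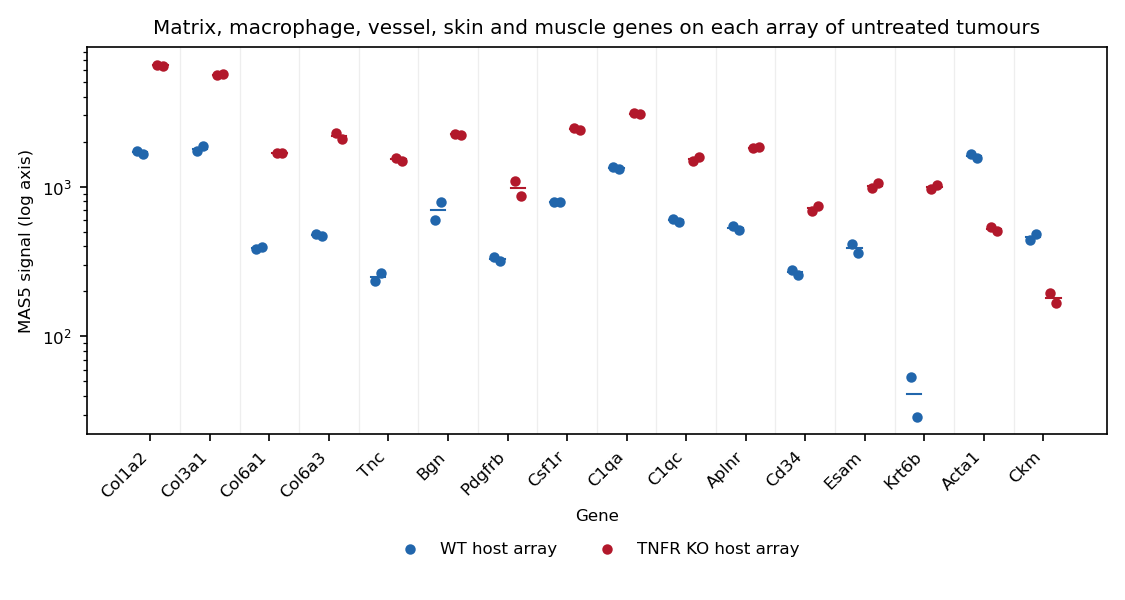
MAS5 signal (log axis) of 16 genes of matrix, macrophages, vessels, skin and muscle on each of the 4 arrays of untreated tumours, blue for WT and red for TNFR KO hosts, with a bar at the mean of the 2 arrays. The collagen, Tnc, Bgn, Pdgfrb, macrophage, vessel and Krt6b signals lie higher on both TNFR KO arrays, and those of the muscle genes Acta1 and Ckm lie lower.

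Genes of tissues next to a subcutaneous graft also differed. Krt6b read 53.3 and 29.0 in WT and 959.9 and 1030.5 in TNFR KO, 18.1-fold higher on the log2(signal + 16) scale (4.18 ± 0.27, adjusted p = 0.000187, limma). Krt5, the keratin of basal epidermis, read 77.2 and 11.5 in WT and 235 and 416 in TNFR KO (2.70 ± 0.61) and Krt6a, a near-identical copy of Krt6b, 142 and 72.7 in WT and 433 and 444 in TNFR KO (1.94 ± 0.57), with a second bright probe set of Krt6a at 3.73. The pattern was the same in genes of the upper layers. Cdsn, of the horny layer, read 86.8 and 35.4 in WT and 286 and 372 in TNFR KO (2.24 ± 0.32). Sprr1a, of the cornified envelope, read 63.0 and 72.9 in WT and 257 and 291 in TNFR KO (1.79 ± 0.14). Lor (loricrin) read 174 and 180.1 in WT and 425 and 455 in TNFR KO (1.24 ± 0.09). No TNFR KO array was as low as a WT array in any of these 6 genes, but calls were lost for Krt5 without TNFR KO array 2 (2.31) and for Krt6a without WT array 2 (1.53) and without TNFR KO array 1 (1.96) and without TNFR KO array 2 (1.93), and a second probe set of Lor gave -0.13. Of 30 matched keratinocyte genes 9 were bright enough to test, Krt6b only through the untreated TNFR KO arrays, so calls among the 9 are no measure of the list. With no filter on signal 16 of 30 were called higher, against 370 of 18193 genes in all, and the members this adds were below the tested level. Krt1 and Krt14, named after their values were seen, read 6.10 and 30.6 in WT and 398 and 399 in TNFR KO, and 6.80 and 7.80 in WT and 233 and 270.4 in TNFR KO. The summed signal of the matched list was 1171 and 1134 in WT and 5258 and 5702 in TNFR KO. Dmkn (dermokine) and Urah, which belong to no list, were among the highest calls as well. Like Krt6b, Dmkn passed the filter on signal only through the untreated TNFR KO arrays, so its call is not independent of that filter. Dmkn read 26.6 and 41.4 in WT and 299 and 319.9 in TNFR KO (2.72 ± 0.27), and Urah 40.4 and 41.7 in WT and 328 and 312 in TNFR KO (2.56 ± 0.26). How much skin each tumour sample held, and what part that had in the matrix and vessel genes, was not tested.

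Skeletal muscle genes were more on the lower side, with 14 of 21 tested below 0 and 7 above. Acta1, skeletal actin, read 1658 and 1552 in WT and 539 and 505 in TNFR KO (-1.59 ± 0.21, adjusted p = 0.00181, limma). The fast troponin Tnnc2 read 359.5 and 375 in WT and 109.7 and 161 in TNFR KO (-1.36 ± 0.25). Creatine kinase Ckm read 438 and 481 in WT and 196 and 167 in TNFR KO (-1.27 ± 0.11). They were the 3 lower calls among 21 tested (none higher, 5 lower by the limma-trend fit, median -0.46), without overlap between hosts. Of the 21, 3 passed the filter only through the untreated WT arrays, and without these 3 of 18 were lower (median -0.33). The probe-set mean of Ckm, -0.73, includes a probe set below the tested level. Mylpf read 356 and 548 in WT and 300.5 and 330.0 in TNFR KO (-0.47, no call). The bright Eno3 went the other way, at 2359 and 2477 in WT and 3072 and 2922 in TNFR KO (0.31, no call). At an unadjusted p under 0.05 (limma), 8 muscle genes were lower and 2 higher. Adipocyte genes had 1 call among 8, the factor Cebpa (94.2 and 115 in WT and 293 and 266 in TNFR KO, 1.30 ± 0.12), while Fabp4 read 1296 and 1246 in WT and 1930.5 and 1937 in TNFR KO (0.60). Of 6 tested erythroid genes Hbb-b2 was lower (164 and 102 in WT and 37.7 and 64 in TNFR KO, -1.15 ± 0.29), a call lost for Hbb-b2 without WT array 1 (-0.84) and without TNFR KO array 1 (-0.86), with a second bright probe set at -0.41. Hbb-b2 is a near-identical copy of other beta globin genes and its signal may include theirs. Cdh19, a cadherin of Schwann cells and melanoma, was lower at 1542 and 1496 in WT and 647 and 571 in TNFR KO (-1.30 ± 0.11, adjusted p = 0.000368, limma), while S100b and Mbp of the same list had log2 differences of -0.04 and 0.15, the other bright probe sets of Mbp ranging from 0.16 to 0.98. Xist, the RNA of the inactive X chromosome, was higher at 191 and 214 in WT and 876 and 902 in TNFR KO (2.05 ± 0.07, adjusted p = 0.000113, limma), and the sex of the hosts is not given in the sources used here.

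**Figure D4:**
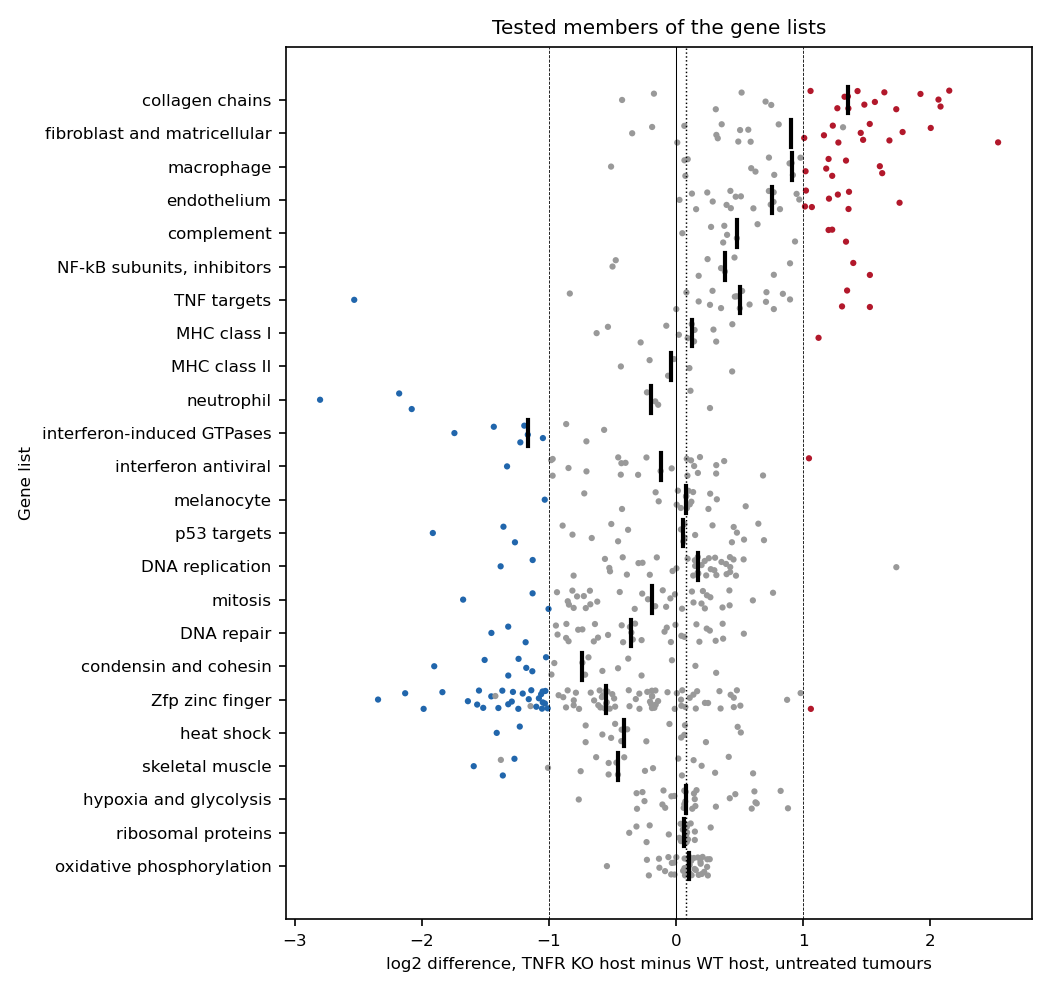
Log2 difference between TNFR KO and WT hosts for each tested member of 24 gene lists in untreated tumours (points, red where called higher, blue where called lower, grey where not called), with the median of each list as a black bar, the median of all tested genes (0.08) as a dotted line and 2-fold differences as dashed lines. Collagens, fibroblast, macrophage and endothelial genes lie to the right, interferon-induced GTPases, condensin and cohesin and Zfp genes to the left, and ribosomal and oxidative phosphorylation genes close to the centre.

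Among genes expressed by dividing tumour cells, condensin and cohesin, the ring complexes that fold and hold chromosomes, were on the lower side. Smc4, a core ATPase of condensin, read 3874 and 3705 in WT and 1059.8 and 947 in TNFR KO and was 3.74-fold lower (log2 difference -1.90 ± 0.16, adjusted p = 0.000356, limma), and its 2 other bright probe sets gave -2.09 and -1.83. The condensin subunit Ncapg read 550.4 and 427 in WT and 171 and 150.0 in TNFR KO (-1.51 ± 0.16). Ncapg2, of the second condensin complex, read 1459 and 1466 in WT and 602 and 619 in TNFR KO (-1.24 ± 0.09). The cohesin subunit Stag1 read 1514 and 1444 in WT and 533 and 638 in TNFR KO (-1.32 ± 0.09), but its probe sets ranged from -1.70 to 0.22. Stag2 read 1970.3 and 1960.3 in WT and 894 and 826 in TNFR KO (-1.18 ± 0.07), and its second probe set gave -1.99. Smc3 (-1.13, a second probe set -0.14) and the loader Nipbl (-1.02, others -0.93 and -0.40) were also called, and their calls were lost for Smc3 without TNFR KO array 2 (-0.93) and for Nipbl without WT array 2 (-0.85) and without TNFR KO array 2 (-0.85). In all, 7 of 19 genes were lower (6.25% over all genes), none was higher and the median was -0.74. Not every subunit followed. Ncapd2, of condensin, read 3384 and 3474 in WT and 4258 and 4287 in TNFR KO (0.32), and Ncaph2 had a log2 difference of -0.03.

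Few mitosis and replication genes were called. Cdc20, which starts anaphase, read 8062 and 8736 in WT and 11057 and 11446 in TNFR KO (0.42). The ubiquitin enzyme Ube2c read 6559.6 and 7360.5 in WT and 7276 and 7092 in TNFR KO (0.05). Pcna, the sliding clamp of replication, read 16565 and 17222 in WT and 14519 and 14763 in TNFR KO (-0.21). None of them was called. Over all tested genes 6.25% were called lower. Of 36 tested mitotic genes 3 were lower and none higher (median -0.19, and 8 lower with arrays centred on the median). At an unadjusted p under 0.05, 9 mitotic genes were higher and 18 lower. Of 39 replication genes 2 were lower and none higher (median 0.17), and at an unadjusted p under 0.05 there were 19 higher and 12 lower. The checkpoint kinase Bub1 read 1906 and 1914 in WT and 601 and 574 in TNFR KO (-1.67 ± 0.08, adjusted p = 0.000122, limma), with a second probe set at -0.54. Ndc80 and Ttk, of the kinetochore and its checkpoint, were -1.13 and -1.003, and calls were lost for Ndc80 without TNFR KO array 1 (-0.98) and for Ttk without WT array 2 (-0.96) and without TNFR KO array 2 (-0.92). Ccne2, the cyclin of S-phase entry, read 401 and 396 in WT and 152 and 136 in TNFR KO (-1.38 ± 0.14, adjusted p = 0.000638), and Pola1, a polymerase subunit, was -1.13, with the call lost for Pola1 without TNFR KO array 1 (-0.89).

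DNA repair genes had a median of -0.35, with 3 of 35 lower (8 with arrays centred on the median) and none higher. Over all 11345 tested genes 709 (6.25%) were lower, and 1118 with that centring. Lig4, the ligase of end joining, read 564 and 551 in WT and 213 and 176 in TNFR KO (-1.45 ± 0.09, adjusted p = 0.000185, limma). Its partner Xrcc4 read 498 and 527 in WT and 217 and 176 in TNFR KO (-1.32 ± 0.14, adjusted p = 0.000773). The groups did not overlap in either. Topbp1 was lower in its brightest probe set (-1.18) and not in its second (0.87). Brca1 read 10455 and 11951 in WT and 5911 and 5793 in TNFR KO (-0.93), short of the threshold, while its other bright probe sets gave -1.20, -1.27 and 0.41. Among 21 tested targets of p53, 3 were lower (6.25% over all tested genes) and none higher, with a median of 0.06. Ccng1 (cyclin G1) read 4677 and 4423 in WT and 1243 and 1150.2 in TNFR KO, 3.77-fold lower (-1.91 ± 0.08, adjusted p = 0.000113, limma), and its other probe sets gave -1.38 and -2.33. Trp53inp1 read 1488 and 1586 in WT and 597 and 582 in TNFR KO (-1.36 ± 0.06), with a second probe set at -0.12. Ddit4, also induced by stress and glucocorticoids, read 2359 and 2399 in WT and 924 and 1038 in TNFR KO (-1.27 ± 0.10). Cdkn1a (p21), the best known p53 target, read 4990.2 and 5003 in WT and 5479.5 and 5619 in TNFR KO (0.15) and was not called.

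Numbered Zfp genes, most of which encode KRAB or other C2H2 zinc finger proteins, held many lower calls: 27 of 92 tested were lower and 1 higher, with a median of -0.55. Lower calls numbered 16 with a pseudocount of 64, 17 with probe sets averaged by gene, and 4 of 29 among the brighter genes that a 75th percentile filter left, where 406 of 7092 genes were lower in all. Of the 92, 8 passed the filter only through the untreated WT arrays, and without them 22 of 84 were lower (median -0.51). Zfp958 read 139 and 161 in WT and 15.7 and 17.6 in TNFR KO (-2.34 ± 0.17, adjusted p = 0.000259, limma). Zfp958 passed the filter on signal only through the untreated WT arrays, so its call is not independent of that filter. Its TNFR KO signals were also near the pseudocount of 16. Zfp386 read 741 and 835 in WT and 179 and 156 in TNFR KO (-2.13 ± 0.14). Zfp617 read 691 and 680.0 in WT and 172 and 151 in TNFR KO (-1.99 ± 0.10). In Zfp386 and Zfp617 the second probe sets were also lower, at -1.76 and -1.06. Zfp638 read 626 and 580.4 in WT and 176 and 140.1 in TNFR KO (-1.84 ± 0.13) and Zfp770 731 and 761 in WT and 258 and 203 in TNFR KO (-1.64 ± 0.11). The bright members Zfp622 and Zfp207 were not called. Zfp622 read 5563 and 5467 in WT and 7587 and 7802 in TNFR KO (0.48), with other bright probe sets at 0.16 and -0.89. Zfp207 read 2390.2 and 2529.7 in WT and 2150.4 and 2142 in TNFR KO (-0.20), with other bright probe sets from -0.15 to 1.06. Of the 709 genes called lower, 401 had another bright probe set, and of those 702 other probe sets 86.8% were also lower and 39.2% at least 2-fold lower. Among the 234 called higher, 80 genes had 113 other probe sets, of which 93.8% were higher and 35.4% at least 2-fold.

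Further lower calls among the 20 lowest lay outside these lists. Alkbh8, a tRNA-modifying enzyme, read 536 and 478 in WT and 109.5 and 88.3 in TNFR KO (-2.19 ± 0.16, adjusted p = 0.00026, limma). Cops2, of the COP9 signalosome, read 2013 and 2106 in WT and 474 and 490.0 in TNFR KO (-2.06 ± 0.08), and Gpbp1 had a log2 difference of -1.97. Ube3a, a ubiquitin ligase, read 1534 and 1684 in WT and 471 and 362 in TNFR KO (-1.92 ± 0.12), and its other probe sets gave -0.86 and -1.02. The proteasome ATPase Psmc6 was lower at 3375 and 3335 in WT and 1367 and 1313 in TNFR KO (-1.31 ± 0.08) and was the 1 call among 31 tested proteasome genes, with its other probe sets at -1.63 and -1.78. Clock genes were split. Nr1d2, a repressor of the clock, read 1505 and 1276 in WT and 374 and 379 in TNFR KO (-1.84 ± 0.09). Clock read 525 and 424 in WT and 216 and 123 in TNFR KO (-1.44 ± 0.25), with its other probe sets at -0.29 and -0.53, while Dbp, Tef and Bhlhe40 had log2 differences of 0.60, 0.36 and 0.25 and no call. Outside the lists on the higher side, Htra1, a secreted protease, read 52.4 and 76.2 in WT and 286 and 336 in TNFR KO (2.04 ± 0.18). Ece1, which activates endothelin, read 121 and 84.2 in WT and 389 and 414 in TNFR KO (1.83 ± 0.15). Rpl12, a ribosomal protein gene, read 429 and 404 in WT and 1656 and 1564 in TNFR KO (1.91 ± 0.09). That is dim for such a gene, as the 24 matched genes of the ribosomal list summed to 463772 and 490714 in WT. Whether this probe set reads the main Rpl12 transcript was not tested.

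Several stress and housekeeping lists had no call. None of 29 hypoxia and glycolysis genes was called, with a median of 0.08, and Ldha read 26693 and 27009 in WT and 27159 and 29064 in TNFR KO. No call was made among 26 genes of the unfolded protein response, 22 NRF2 targets, 21 apoptosis genes, 23 ribosomal protein genes of the list, which does not hold Rpl12, or 38 oxidative phosphorylation genes, with medians of 0.31, 0.04, 0.04, 0.07 and 0.10. These counts of 0 are limma's and also those of its limma-trend fit. At an unadjusted p under 0.05 with no fold threshold, 10 hypoxia and glycolysis genes were higher and 5 lower. The same counts were 16 and 6 for the unfolded protein response, 7 and 3 for NRF2 targets and 3 and 5 for apoptosis. They were 1 and 3 for ribosomal proteins and 12 and 4 for oxidative phosphorylation. Heat shock genes were more on the lower side, with 2 of 18 lower (6.25% over all tested genes), none higher and a median of -0.41. At an unadjusted p under 0.05, 11 were lower and 2 higher. Hspb1 (a small heat shock protein) read 2408 and 2726 in WT and 973 and 936 in TNFR KO (-1.41 ± 0.08, adjusted p = 0.000163, limma). The cochaperone St13 read 5254 and 5276 in WT and 2192 and 2282 in TNFR KO (-1.23 ± 0.07), but its other probe sets gave 0.38 and -0.62. Hsp90aa1 read 16678 and 16423 in WT and 10294 and 9921 in TNFR KO (-0.71, no call), but its other bright probe sets were past 2-fold at -1.24 and -1.04. Hspa8 had a log2 difference of 0.07. Of 26 immediate-early genes Egr1 was lower (1271 and 1488 in WT and 642 and 620.5 in TNFR KO, -1.10 ± 0.11), a call lost for Egr1 without WT array 2 (-0.99). Among 9 tested genes known to vary between 129 and C57BL/6 mice, 1 was lower (6.25% over all tested genes). It was Trim12c (224 and 207 in WT and 78.5 and 80.7 in TNFR KO, -1.28 ± 0.14). All 9 had a log2 difference under 0 (median -0.28), as did 4883 of the 11345 tested genes.

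The irradiated pools of the same hosts, which share no pool with the untreated ones but differ in the spike-ins in the same way, show which host differences were seen in both. Of the 709 genes called lower in untreated tumours, 487 (68.7%, or 57.8% of the 843 called lower after irradiation, which are 7.43% of tested genes) were lower in both comparisons and none was called higher after irradiation. Of the 234 called higher in untreated tumours, 20 (8.55%, or 22.2% of the 90 called higher after irradiation, 0.793% of tested genes) were also called higher after irradiation, 212 were not called and 2 were called lower. A difference between the 2 host differences was called for 251 genes (2.21%), in 233 of them (2.05%) more positive in untreated tumours and in 18 (0.159%) more negative. The 233 became 154 without TNFR KO untreated array 1 and 148 without array 2, and the 18 became 7 without WT untreated array 1, 7 without TNFR KO untreated array 1 and 8 without TNFR KO irradiated array 2.

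Macrophage and class II genes differed in this way. Csf1r read 1251 and 1251 in irradiated WT and 1189 and 1206 in irradiated TNFR KO tumours. Its host difference was -0.06 there and 1.60 in untreated tumours, and the 2 differed by 1.67 ± 0.08 (adjusted p = 0.000977, limma). Of 19 tested macrophage genes 14 had a more positive host difference in untreated tumours, and after irradiation 0 were higher and 3 lower, with a median of -0.34. All 6 tested class II genes differed likewise. Cd74 read 4182 and 3801 in irradiated WT and 1030.3 and 1024 in irradiated TNFR KO tumours, and its host differences differed by 1.88 ± 0.10 (adjusted p = 0.00172). Lcn2, S100a8 and S100a9 were lower in both, and by the test of the difference more so after irradiation. Lcn2 read 4535 and 4334 against 122 and 87.5 after irradiation, and its host differences of -2.80 and -5.22 differed by 2.42 ± 0.22 (adjusted p = 0.00517). Cxcl1 differed between hosts by 0.71 untreated and -0.71 irradiated, and these differed by 1.42 ± 0.18 (adjusted p = 0.0117), a call lost without TNFR KO untreated array 2 (1.40).

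Collagens were split, with 3 of 20 higher after irradiation and 6 more positive in untreated tumours, Col3a1 among them by 1.31 ± 0.09 (adjusted p = 0.00228, limma) and Col18a1 not (0.31 ± 0.16, adjusted p = 0.267). Endothelial genes had 1 such difference among 26, and Aplnr was 1.76 untreated and 1.61 irradiated. Krt6b was 4.18 untreated and 1.57 irradiated and these differed by 2.60 ± 0.39 (adjusted p = 0.0185), a call lost without either WT irradiated array (2.60 each). Xist was 2.05 untreated and 0.59 irradiated, which differed by 1.47 ± 0.10 (adjusted p = 0.00258). For condensin and cohesin genes and for Zfp genes no difference between the 2 was called among 19 and 92 (limma, with 5 and 25 at an unadjusted p under 0.05), and Smc4 was -1.90 untreated and -2.44 irradiated.

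**Figure D5:**
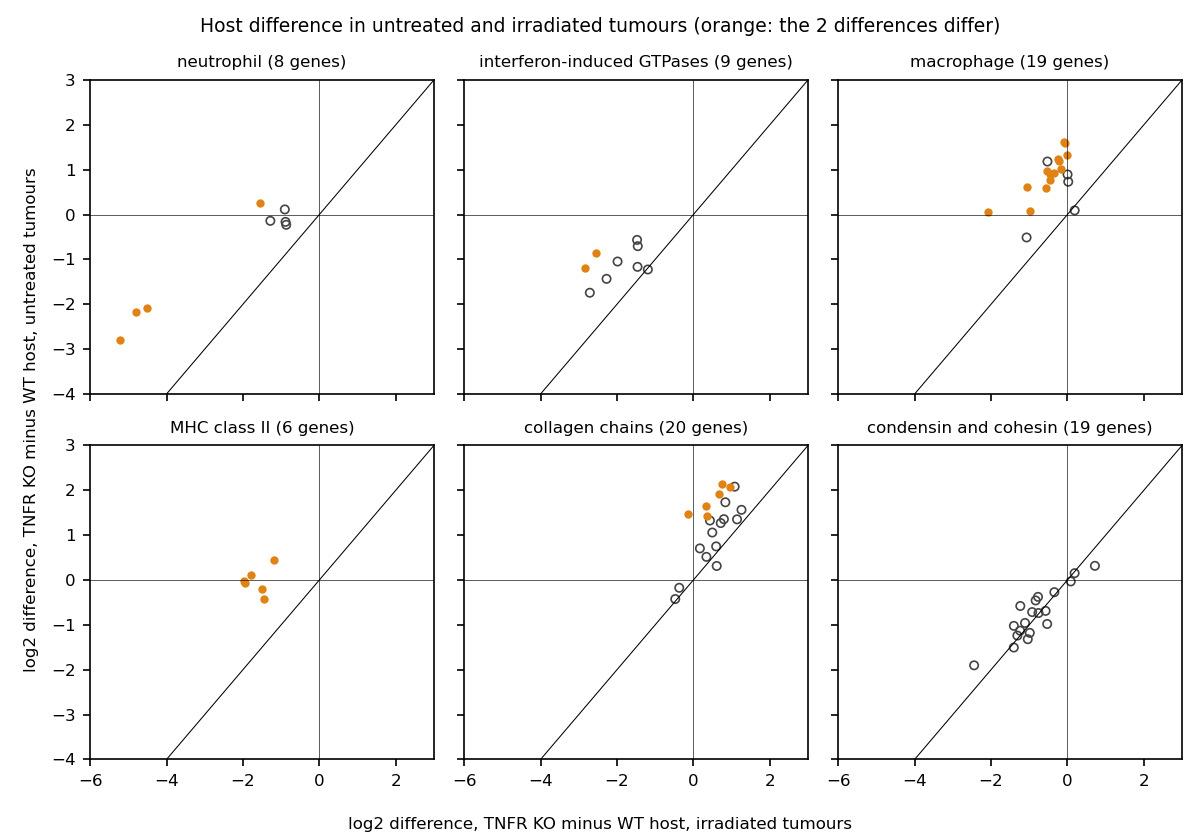
Log2 difference between TNFR KO and WT hosts in untreated tumours against that in irradiated tumours for the tested members of 6 lists, with the line of equality. Orange points are genes whose 2 host differences differ by the test of that difference: 14 of 19 macrophage genes and 6 of 6 class II genes, and none of the condensin and cohesin genes, which lie near the line.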

How the data were processed

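Whole tumours were profiled on Affymetrix Mouse Genome 430 2.0 arrays, 2 arrays for each of 4 RNA pools. The authors deposited linear signal intensity, computed with MAS5 per the submitters' processing notes. Every array had a 2%-trimmed mean of 500, so the authors had scaled them alike. The number of arrays limits the precision, and the arrays do not measure the spread between mice. By the platform annotation, 34945 probe sets had 1 gene, 932 had several and 9160 had none. Gene identifiers of 34741 of the first were found in a RefSeq table.

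Each of 18193 genes was read from the brightest probe set specific to it. Genes were tested from a mean log2 signal of 6.41 over the 8 arrays (a signal of 68.8), the median over non-control probe sets. The test was limma 3.58.1 in R 4.3.3 on log2(signal + 16) with 4 group means over 8 arrays (4 residual degrees of freedom), two-sided, called at a Benjamini-Hochberg adjusted p under 0.05 and 2-fold. It recovered known changes in simulated data, which held only the spread of duplicate arrays and no difference between preparations or mice. Figures used matplotlib 3.10.9.

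Gene lists and members were chosen with earlier results of these data known, so lists are described by counts and medians. Genes named were Tnfrsf1a, Tnfrsf1b and Tnf, the 20 highest and 20 lowest calls, and from each list up to 8 called members and the 3 brightest, of which those that show the pattern are printed. The printed genes are thus a choice, while the counts and medians of a list cover all its tested members. Genes named only as below the tested level, Krt1 and Krt14 were added after values were seen. Replicate numbers did not pair the arrays (correlations of deviations between -0.010 and 0.012). Promoters came from RefSeq, GRCm38.p6, without an entry for every gene.

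Alternatives were quantile normalization, median centring, other pseudocounts (none, 64), filters (none, 75th percentile), means over all probe sets of a gene (dim ones included), the 4 untreated arrays alone, limma-trend, a replicate block, other fold thresholds and leaving out each array.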

Additional observations from a re-analysis of the deposited data

Results flagged for a closer look

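The poly-A spike-ins, which belong to no gene comparison, averaged 13363 (dap), 2283 (lys), 3015 (phe) and 4078 (thr) on the WT arrays of untreated tumours and 11.6, 16.9, 11.6 and 11.5 on the TNFR KO arrays.

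For 54 of 192 tested genes named in the report, the host difference in untreated tumours differed from that in irradiated tumours by the limma test of the difference itself. Values below are the host difference (log2, TNFR KO minus WT) untreated minus irradiated.

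Among inflammatory genes lower in untreated TNFR KO tumours, it was 2.42 for Lcn2, 2.42 for S100a8, 2.61 for S100a9, 1.86 for Cxcl2, 2.08 for Cxcl3, 2.32 for Ccl3, 2.46 for Acod1, 2.33 for Clec4e and 1.65 for Gbp2. Each of these was lower by a larger amount after irradiation. Acod1 was tested only through the untreated WT arrays.

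Of inflammatory and antigen presentation genes not called in untreated tumours, it was 2.62 for Saa3, 2.37 for Cxcl9, 2.23 for Il1b, 1.88 for Cd74, 1.86 for Il1rn, 1.65 for Nfkbia, 1.42 for Cxcl1, 1.29 for H2-Aa, 1.09 for Ccl6 and 1.09 for Arg1.

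Macrophage genes higher in untreated TNFR KO tumours gave 1.71 for Laptm5, 1.67 for Csf1r, 1.49 for C1qb, 1.42 for C1qa, 1.34 for C1qc and 1.20 for Cd68, and the lysozymes 1.37 for Lyz2 and 1.26 for Lyz1. In the same direction were Ccl5 (2.21), Ifi27l2a (1.59), Tnfrsf9 (1.48), Relb (1.45), Tapbp (1.30) and Csf1 (1.20).

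Matrix and stromal genes gave 1.91 for Tnc, 1.90 for Mmp3, 1.62 for Col5a2, 1.60 for P3h2, 1.57 for Tgfbi, 1.39 for Col6a3, 1.36 for Htra1, 1.31 for Col3a1, 1.25 for Col1a2, 1.12 for Col6a1, 1.09 for Angptl4 and 1.06 for Bgn. Skin and other genes gave 2.60 for Krt6b, 2.46 for Dmkn, 2.45 for Urah, 1.58 for Ece1, 1.47 for Xist, 1.43 for Sprr1a and 1.32 for Fabp4. Krt6b and Dmkn were tested only through the untreated TNFR KO arrays.

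Ccne2 (-1.10) and Hbb-b2 (-2.00) differed the other way. In all, 28 of the 54 kept the call under every alternative run, and 16 lost it without 1 array: Acod1, Bgn, Ccl6, Ccne2, Cxcl1, Cxcl3, Dmkn, Ece1, Hbb-b2, Htra1, Ifi27l2a, Krt6b, Mmp3, Relb, Sprr1a and Urah.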

How the results depend on the processing

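Genes called higher in untreated TNFR KO tumours (234) numbered 128 with arrays centred on the median, 133 with a pseudocount of 64, 370 with no filter on signal, 91 with the 75th percentile filter, 2998 with no fold threshold and 15 at 4-fold. Those called lower (709) numbered 1118 with median centring, 406 with the 75th percentile filter, 407 with probe sets averaged by gene, 2698 with no fold threshold and 12 at 4-fold. Leaving out 1 array gave 205 to 297 higher and 661 to 736 lower.

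Host differences more positive in untreated than in irradiated tumours (233) numbered 89 with the 75th percentile filter, 685 with no fold threshold and 28 at 4-fold, and 148 to 196 with 1 array left out. Those more negative (18) numbered 32 with quantile normalization, 101 with median centring, 7 with a pseudocount of 64, 9 with the 75th percentile filter, 28 with limma-trend, 399 with no fold threshold and 1 at 4-fold, and 7 to 20 with 1 array left out. Fewer genes are tested under the stricter filter. Otherwise the cause of these changes was not tested.

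The replicate numbers share only a number and do not pair the arrays. With the replicate number as a block, 236 genes were called higher and 709 lower, and the differences numbered 186 and 7.

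Of 124 called genes in the report 71 kept the call in every alternative run, and no log2 difference of a called gene changed sign. List medians kept their sign in 33 of 52 lists. Median centring shifts all genes alike, and it moved the median of all genes from 0.08 to -0.12, so medians a little above 0 turned negative. Not every change of sign came from it. The CXC chemokine median turned negative under the stricter filter. The medians of TNF signalling and antiviral genes, below 0 in the main fit, reached 0.04 and 0.09 under other settings. Each pool is 1 sample, so no setting shows how mice vary.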
